A study of Homo sapiens with 18 samples.

Results

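The genes described here encode the protein-folding machinery of the endoplasmic reticulum (ER): its chaperones, the sensors of unfolded protein, the factors that send misfolded protein to degradation, and the channel through which proteins enter. The list holds 35 genes chosen by name for these roles, and 33 of them had a probe set annotated to that gene alone, out of 12376 genes tested. The choice was made with earlier results of these data known, so counts set beside those of all genes are descriptive only. PDIA5 and SYVN1 were not analysed, because their probe sets are annotated to a second gene as well. Cells of U251, an established human glioblastoma line, received enzastaurin, a small molecule made to inhibit protein kinase C beta, or its vehicle DMSO, and RNA was taken after 4, 10 or 18 h. The 6 groups were enzastaurin at 4, 10 and 18 h and DMSO at 4, 10 and 18 h, with 3 arrays each, all in RPMI medium with 5% serum; the dose is not given in the labels. The labels call the 3 arrays of a group replicates without saying whether they came from separate cultures, so the p-values below measure the spread between arrays, which may be technical.

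ER-resident chaperones bind new polypeptides as they enter the organelle, and disulfide isomerases form and rearrange their cysteine bonds. When unfolded protein builds up, 3 membrane sensors start the unfolded protein response: IRE1 (gene ERN1), which splices the mRNA of the transcription factor XBP1, ATF6, which is cut in the Golgi to release a transcription factor, and PERK (EIF2AK3), which slows translation and raises ATF4. ATF6 and spliced XBP1 are known to act on promoters through short sequences called the ER stress response elements (ERSE and ERSE-II) and the unfolded protein response element (UPRE). The intensities measure mRNA and do not show splicing of XBP1, cleavage of ATF6 or activity of PERK. Arrays of whole cultures also cannot tell a change in every cell from a change in a share of the cells.

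Against DMSO at the same time, the changes in these genes after enzastaurin ran upward. At 1 or more times, 13 of the 33 measured genes were called higher and none lower. Among all genes tested, 9.83% were called higher and 10.7% lower at 1 or more times. XBP1, the co-chaperone gene DNAJB9 and the degradation factor gene HERPUD1 roughly doubled at 10 h, while ATF6, the lectin chaperones CALR and CANX and most degradation factors did not pass the test at any time on the probe set that stands for the gene, the brightest one. A gene is called here when its limma adjusted p (Benjamini-Hochberg over all genes of a comparison) was under 0.05, and changes are log2 differences of intensity + 16, given with their standard error. For enzastaurin, rose and fell mean higher or lower than DMSO at the same time, not a course over time.

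The promoters of the chaperone genes are where the stress elements were described, so the sequences around the start sites are shown before the values. They are RefSeq promoters on GRCh38.p14, 250 bases before to 50 after a start site, printed 5′ to 3′ on the gene's own strand. Capitals mark the fixed letters of an exact ERSE (CCAAT and CCACG with 9 bases of any kind between them) or ERSE-II (ATTGG and CCACG with 1 base between them) on either strand. The first 3 belong to genes that rose, HSPA5 at chr9:125241294-125241593 on the minus strand, XBP1 at chr22:28800520-28800819 on the minus strand and HERPUD1 at chr16:56931892-56932191 on the plus strand, and the last to CALR at chr19:12938359-12938658 on the plus strand, which holds an ERSE and was not called at any time.
HSPA5: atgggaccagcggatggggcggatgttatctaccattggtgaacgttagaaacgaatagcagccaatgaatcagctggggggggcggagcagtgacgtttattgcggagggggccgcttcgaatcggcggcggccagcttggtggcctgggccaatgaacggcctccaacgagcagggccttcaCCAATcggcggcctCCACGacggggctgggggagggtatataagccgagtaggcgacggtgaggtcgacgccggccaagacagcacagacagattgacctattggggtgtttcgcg
XBP1: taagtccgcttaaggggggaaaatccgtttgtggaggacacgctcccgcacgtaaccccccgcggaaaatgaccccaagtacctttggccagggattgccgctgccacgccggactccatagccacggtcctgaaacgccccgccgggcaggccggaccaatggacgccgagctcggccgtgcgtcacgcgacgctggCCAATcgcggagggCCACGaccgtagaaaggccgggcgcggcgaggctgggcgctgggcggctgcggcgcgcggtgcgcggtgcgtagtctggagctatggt
HERPUD1: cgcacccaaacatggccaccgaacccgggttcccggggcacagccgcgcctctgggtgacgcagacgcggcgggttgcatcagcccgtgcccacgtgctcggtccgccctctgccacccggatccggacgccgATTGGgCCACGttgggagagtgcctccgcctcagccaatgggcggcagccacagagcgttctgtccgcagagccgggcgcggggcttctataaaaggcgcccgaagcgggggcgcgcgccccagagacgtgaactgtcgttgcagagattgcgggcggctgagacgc
CALR: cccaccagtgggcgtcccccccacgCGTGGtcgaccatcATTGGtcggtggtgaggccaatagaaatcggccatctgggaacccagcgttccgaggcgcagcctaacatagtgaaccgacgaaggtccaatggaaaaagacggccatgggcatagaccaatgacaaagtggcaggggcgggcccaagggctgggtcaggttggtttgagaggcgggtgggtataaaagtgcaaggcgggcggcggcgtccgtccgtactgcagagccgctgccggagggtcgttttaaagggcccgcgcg

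Among 35116 promoters of this table, an exact ERSE was found in 27 (0.0769%) and an exact ERSE-II in 19 (0.0541%). Of the 32 listed genes with a promoter in the table, 8 held an ERSE and 3 an ERSE-II, beside 0.0916% and 0.0696% of all genes with a promoter there. Because the elements were described in promoters of chaperone genes, this higher share is not independent of the list. PDIA3, DERL1 and DERL3 had no entry. The short windows below show the other elements with 8 bases on each side, for the genes called higher (HYOU1 with 2 copies, SDF2L1, and HSP90B1 with 2 copies) and then for those that were not called (CANX, PDIA6, CRELD2 and SERP1).
HYOU1 upstream copy: ccccgtgaCGTGGtCCAATcccaggcc
HYOU1 downstream copy: gcctgggaCGTGGtCCAATgagtacgc
SDF2L1: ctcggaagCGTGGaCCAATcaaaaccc
HSP90B1 upstream copy: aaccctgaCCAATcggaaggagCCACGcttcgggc
HSP90B1 downstream copy: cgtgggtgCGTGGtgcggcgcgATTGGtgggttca
CANX: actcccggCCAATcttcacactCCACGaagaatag
PDIA6: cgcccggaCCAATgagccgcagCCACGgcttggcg
CRELD2: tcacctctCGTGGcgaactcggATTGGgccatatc
SERP1: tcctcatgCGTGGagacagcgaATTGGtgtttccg

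These windows lie at chr11:119057372-119057398 and chr11:119057266-119057292 (minus strand), chr22:21642106-21642132 (plus), chr12:103930208-103930242 and chr12:103930313-103930347 (plus), chr5:179698770-179698804 (plus), chr2:10812845-10812879 (minus), chr22:49918546-49918580 (plus) and chr3:150546702-150546736 (minus), in the order of the lines. The UPRE (TGACGTGG) occurred in 0.927% of all genes with a promoter and in 2 listed genes, HYOU1 and DNAJC10. The HYOU1 match overlaps its upstream ERSE-II. The parts of the ERSE alone are common, CCAAT being in 39.7% and CCACG in 42.1% of all genes with a promoter, and in 27 and 25 of the 32 listed genes. Of the 13 genes called higher at some time, all with a promoter in the table, 6 held an ERSE or ERSE-II, and of the 17 measured genes with a promoter that were not called, 5 did. This split rests on the brightest probe set of each gene. Other probe sets of SERP1, which is among those 5, and of ATF6, which is among the 17, passed the threshold at some time, as given below. ERN1, EIF2AK3, DNAJB9, DNAJB11, DNAJC3, PDIA4 and SEC61A1 were called higher with no exact match of either element in these windows. Inexact copies were not searched. A match describes the letters in the window and not a bound site.

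**Figure D1:**
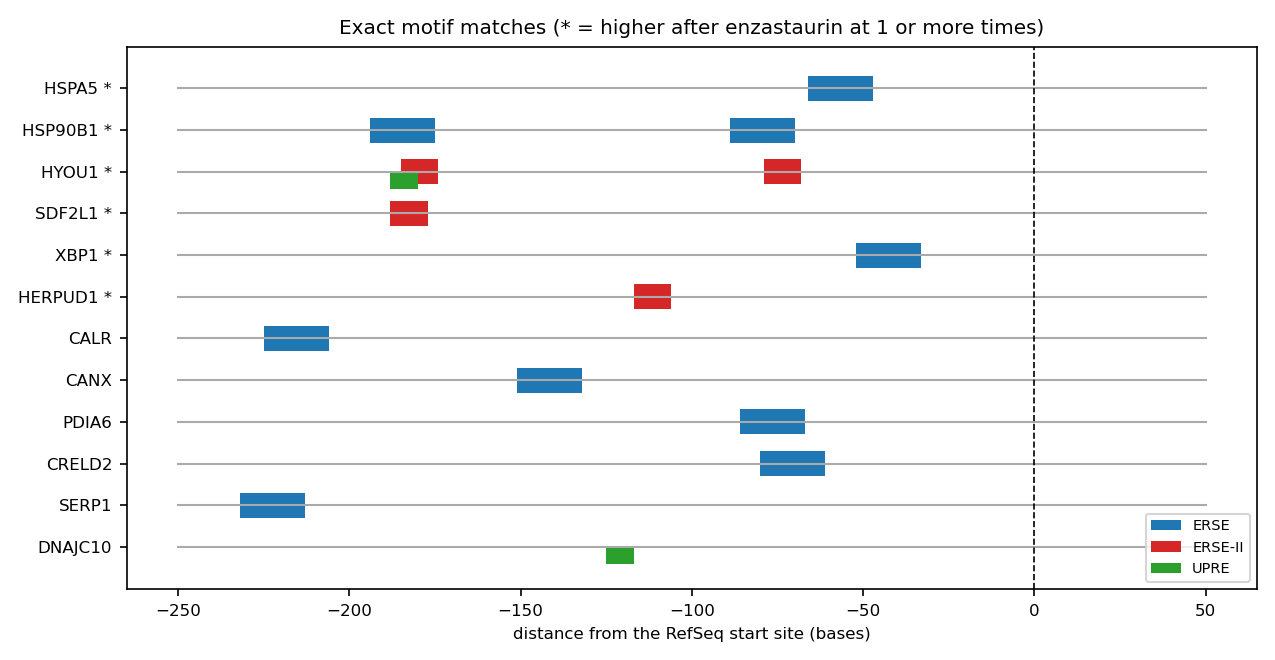
Positions of exact ERSE, ERSE-II and UPRE matches (x axis, bases from the start site, over the whole 300 base window) in the promoters of 12 of the listed genes (y axis). An asterisk marks a gene called higher after enzastaurin at 1 or more times on its brightest probe set. CANX is drawn at 1 of its start sites; matches sit between -232 (SERP1) and -34 (XBP1) and occur in genes with and without an asterisk.

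The 2% trimmed means of the 18 arrays lay between 498.2 and 498.5, and their median intensities between 99.2 and 125.9. Array number limits the precision, with a median standard error of 0.13 for a log2 change at 1 time. Of 9 astroglial and glioma markers, 7 stood above the level filter, VIM and CD44 among the bright ones, but GFAP (5.0 to 101.2) and S100B (3.1 to 35), which define astrocytes, were below it on average. Of 10 markers of other cell types, 4 passed it (CD3E, PECAM1, MOG and SNAP25, none over 406.9 on any array), and EPCAM, CDH1, PTPRC, CD14, CDH5 and ALB did not. All 33 measured genes of the list passed the level filter.

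At 4 h, 2 of the 33 genes were called higher, DNAJB9 and XBP1, and none lower, where 0.558% of all genes tested were called higher and 1.25% lower. At 10 h, 10 of the 33 were called higher and none lower, beside 3.77% higher and 4.69% lower among all genes. By 18 h the count was again 10 higher and none lower, beside 8.10% and 7.90% among all genes. The median change of the 33 genes was 0.11 at 4 h, 0.17 at 10 h and 0.19 at 18 h, against 0.00, -0.02 and 0.00 over all genes. Positive changes were measured for 25, 28 and 30 of the 33 at the 3 times, against 50.2%, 46.9% and 50.2% of all genes. All 3 enzastaurin arrays lay above all 3 DMSO arrays for 10, 17 and 16 of the 33 genes, against 9.17%, 11.8% and 15.4% of all genes, and for none of the 33 did they all lie below. Averaged over the 3 times, 16 of 33 were called higher and none lower, beside 9.07% and 9.44% of all genes, which adds P4HB, PDIA3 and SEC61B. With array medians subtracted, or with each gene's probe sets averaged, the counts called higher at 4, 10 and 18 h were 1, 6 and 7. Subtracting medians ended the calls of XBP1 at 4 h, of DNAJC3, HSP90B1, PDIA4 and SEC61A1 at 10 h, and of DNAJB11, EIF2AK3 and PDIA4 at 18 h. Averaging probe sets ended the calls of XBP1 at all 3 times, of DNAJC3, ERN1 and PDIA4 at 10 and 18 h and of EIF2AK3 at 18 h, and added HSPA5 (0.27, adjusted p = 0.0474) and SEC61B (0.39, adjusted p = 0.0328) at 18 h. The count at 10 h was 6 without DMSO replicate 3 of that time, and the count at 4 h was 1 without any of 4 arrays named below.

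**Figure D2:**
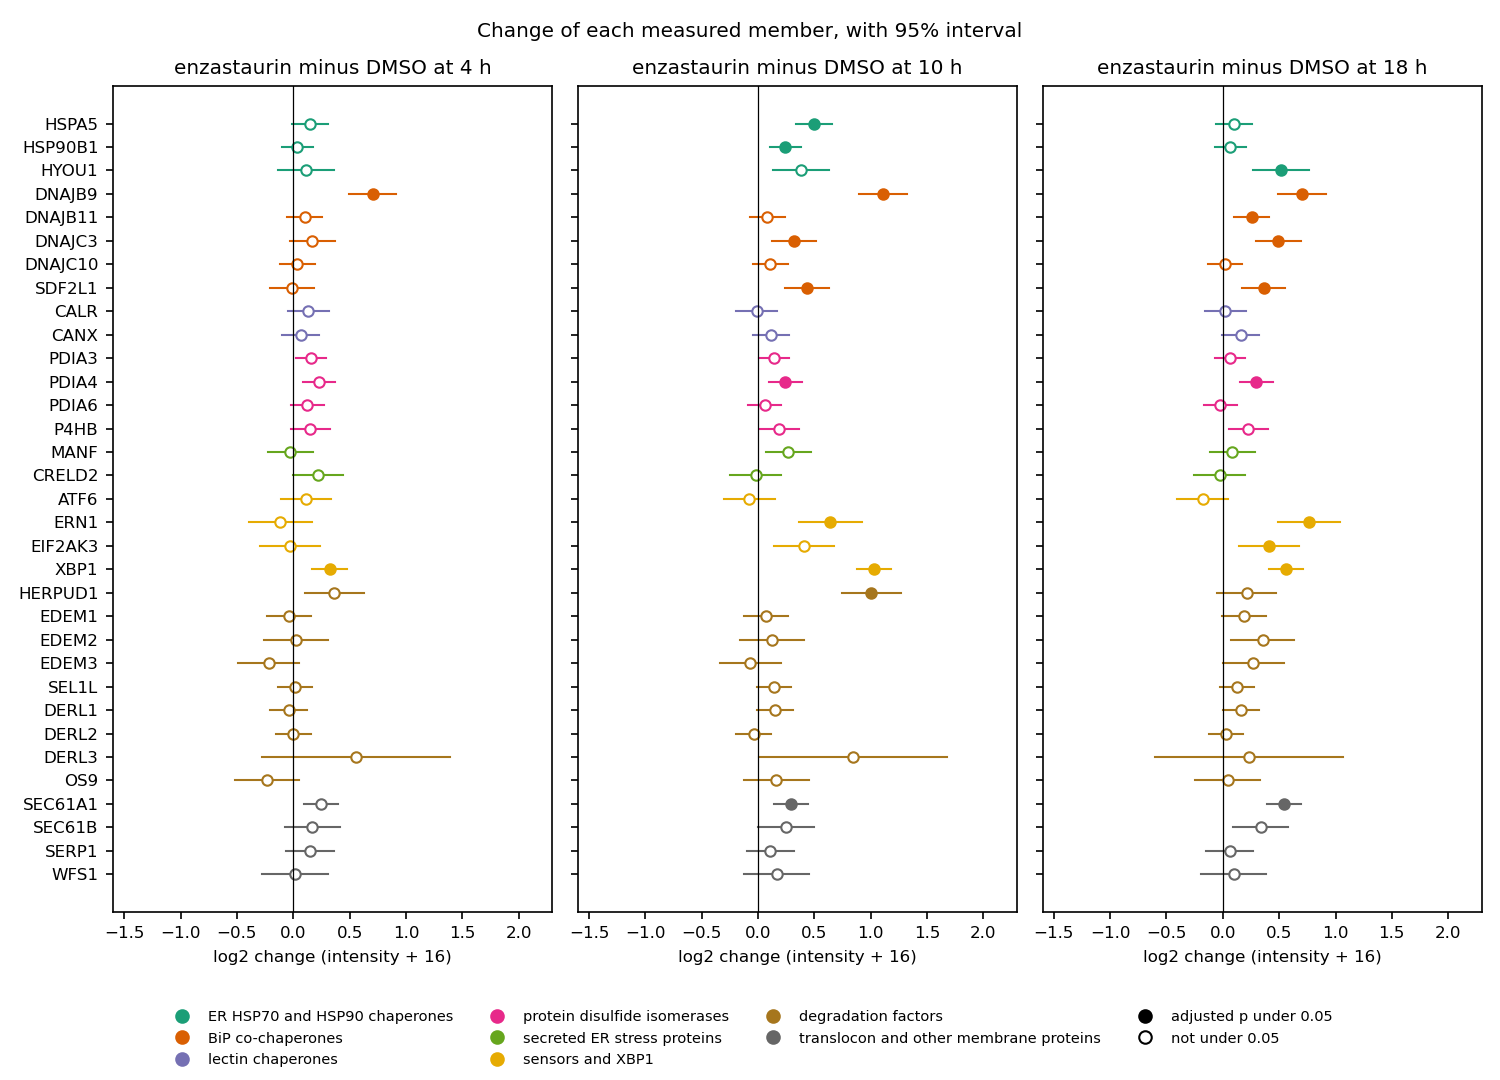
Log2 change (enzastaurin minus DMSO, x axis) of the 33 measured genes, grouped by role, at 4, 10 and 18 h, with 95% intervals; filled points have an adjusted p under 0.05. Filled points all lie right of 0, and most degradation factors keep open points in the 3 panels.

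HSPA5 encodes BiP, the ER's main HSP70 chaperone, HSP90B1 its HSP90 partner GRP94, and HYOU1 an HSP70-like exchange factor of BiP. HSPA5 reached 21819.7, 19754 and 19396 on the enzastaurin arrays at 10 h, against 13293, 14202 and 15723 on the DMSO arrays. The groups did not overlap, and the change was 0.50 ± 0.08 (adjusted p = 0.000223), a 1.41-fold higher level. Earlier and later the groups of HSPA5 stood closer, at 16008, 16794 and 18301 after enzastaurin against 15508, 14891 and 15621 in DMSO at 4 h (change 0.15, adjusted p = 0.439). At 18 h the arrays overlapped, 15397, 17361 and 16978 after enzastaurin and 14318, 16090.2 and 15948 in DMSO, and the change of 0.10 was not called (95% interval -0.06 to 0.26). A dimmer HSPA5 probe set gave 0.38 at 10 h (adjusted p = 0.157) and 0.44 at 18 h (adjusted p = 0.0492, over all probe sets), so the probe sets of this gene differ on the 18 h call.

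HYOU1 had 5498, 4961 and 7679 after enzastaurin at 18 h, against 4109.9, 3756 and 4647 in DMSO. Every enzastaurin array was above every DMSO array, replicate 3 standing well above the other enzastaurin arrays, and the change was 0.51 ± 0.12 (adjusted p = 0.00461). Without that array the change was 0.33, still called. Its values at 10 h were 5674, 5497 and 5623 after enzastaurin and 4689, 3784 and 4473 in DMSO, also without overlap, with a change of 0.38 ± 0.12 that missed the threshold (adjusted p = 0.0531). HSP90B1 was called at 10 h only, with 5592, 5686 and 5490.0 after enzastaurin against 5024, 4582 and 4585 in DMSO. That change was small, 0.24 ± 0.07 (adjusted p = 0.0264), and removing DMSO replicate 2 or 3, or enzastaurin replicate 1 or 2, ended the call (adjusted p up to 0.108). The probe set of HSP90B1 is of a type that may also bind similar transcripts, as are those used for CALR, PDIA6, OS9 and DERL3, so the values of these 5 genes are uncertain. The other HSP90B1 probe set, of the same type, gave 0.23 at 10 h (adjusted p = 0.474).

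The BiP co-chaperones include the J proteins DNAJB9 (ERdj4), DNAJB11 (ERdj3), DNAJC3 (P58IPK) and DNAJC10 (ERdj5), and SDF2L1, a partner of DNAJB11. DNAJB9 rose at each of the 3 times. Its intensities at 4 h were 2053, 2046 and 2575 after enzastaurin and 1116, 1403 and 1576 in DMSO. At 10 h they were 2927, 2744 and 2921 after enzastaurin and 1332, 1330.1 and 1303 in DMSO, and at 18 h 2124, 2201 and 2238 after enzastaurin and 1338, 1276 and 1409.7 in DMSO. Every enzastaurin array was above every DMSO array at the same time. The changes were 0.70 ± 0.10 at 4 h (adjusted p = 0.00044), 1.11 ± 0.10 at 10 h (adjusted p = 2.94e-07) and 0.70 ± 0.10 at 18 h (adjusted p = 4.4e-05), which is 1.63-, 2.15- and 1.62-fold. These calls held without any 1 array and under every processing alternative run. These values are of its brightest probe set. Of its other 2, both above the level filter, 1 gave 1.01, 1.06 and 0.42 at 4, 10 and 18 h (adjusted p = 0.00844, 0.00183 and 0.227 over all probe sets) and the dimmest gave 0.66, 0.96 and 0.64 (adjusted p = 0.14, 0.00461 and 0.0375), so each of them missed the threshold at 1 time.

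SDF2L1 measured 2023, 1995 and 2482 after enzastaurin at 10 h, against 1548, 1752 and 1489.7 in DMSO. At 18 h the intensities were 2002, 1939 and 2046 after enzastaurin and 1609, 1515 and 1524 in DMSO. The groups were apart at both times, with changes of 0.43 ± 0.09 (adjusted p = 0.00487) and 0.36 ± 0.09 (adjusted p = 0.00964), while at 4 h the change was -0.01. DNAJC3 had 1957, 1778 and 1783 after enzastaurin at 18 h, against 1256, 1406 and 1248 in DMSO, a change of 0.49 ± 0.09 (adjusted p = 0.000884). The other 3 DNAJC3 probe sets, all dimmer, gave 0.17, 0.24 and 0.30 at 18 h, none called, and with its probe sets averaged the change was 0.30 (adjusted p = 0.18). At 10 h DNAJC3 had 2424, 2448 and 1959 after enzastaurin and 1942, 1664 and 1845 in DMSO; the lowest enzastaurin array stood just above the highest DMSO array. That change of 0.32 ± 0.09 (adjusted p = 0.0409) was lost without DMSO replicate 2 or 3 or enzastaurin replicate 1 or 2 (adjusted p up to 0.193).

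DNAJB11 was called at 18 h only, with 9959, 10519 and 10054 after enzastaurin against 8254, 8826 and 8457 in DMSO. The groups were apart and the change was 0.26 ± 0.07 (adjusted p = 0.0204), but it missed the threshold without DMSO replicate 1 or 3 or enzastaurin replicate 2 (adjusted p up to 0.0794). DNAJC10, which also reduces disulfides, was not called, with changes of 0.04, 0.11 and 0.02 at 4, 10 and 18 h. Of the 5 co-chaperone genes, 1, 3 and 4 were thus higher at the 3 times, beside 0.558%, 3.77% and 8.10% of all genes.

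Among the disulfide isomerases, PDIA4 (ERp72) was called at 10 and 18 h. Its intensities at 18 h were 4875, 4574 and 5274 after enzastaurin and 3752, 4323 and 3908 in DMSO, and at 10 h 5142, 5109.6 and 4536 after enzastaurin and 4228, 4094 and 4168 in DMSO. No arrays overlapped at either time. The changes were modest, 0.24 ± 0.07 at 10 h (adjusted p = 0.0361) and 0.30 ± 0.07 at 18 h (adjusted p = 0.00514), and the 10 h call was lost without any 1 array other than enzastaurin replicate 3 (adjusted p up to 0.142). The second PDIA4 probe set gave 0.13 at 10 h and 0.10 at 18 h (adjusted p = 0.626 and 0.668 over all probe sets), and with both averaged the 18 h change was 0.20 (adjusted p = 0.0638). At 4 h PDIA4 stood at 5155, 5286 and 4816 after enzastaurin and 4205, 4424 and 4382 in DMSO, apart as well, with a change of 0.23 that missed the threshold (adjusted p = 0.117).

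P4HB (PDI itself) and PDIA3 (ERp57, which works with the lectin chaperones) passed the test on the average of the 3 times only. P4HB had 21843, 22961 and 23382 after enzastaurin against 20716, 20191 and 20501 in DMSO at 4 h. It had 19677, 20431 and 22587 after enzastaurin against 17936, 18917 and 18097 in DMSO at 10 h, and 18105, 18737 and 23261 after enzastaurin against 15816, 17427 and 17866 in DMSO at 18 h. Each time its enzastaurin arrays were above its DMSO arrays, and the average change was 0.19 ± 0.05 (adjusted p = 0.00737). PDIA3 at 4 h had 16792, 17329 and 16891 after enzastaurin and 15409.9, 15102 and 15177 in DMSO. At 10 h it had 16252, 16682 and 17821 after enzastaurin and 14773, 16297 and 14917 in DMSO, and at 18 h 14845, 16442 and 16205 after enzastaurin and 14117, 15689 and 15657 in DMSO. The groups of PDIA3 were apart at 4 h and overlapped at 10 and 18 h. Its average change was 0.12 ± 0.04 (adjusted p = 0.0258), a call lost without DMSO replicate 1 or 3 at 10 h, DMSO replicate 1 at 18 h, or enzastaurin replicate 2 at 4 or 18 h (adjusted p up to 0.0637). PDIA6 (P5) was not called, with changes from -0.02 to 0.13.

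The lectin chaperones calreticulin (CALR) and calnexin (CANX) hold newly glycosylated proteins. CALR changed by 0.13, -0.01 and 0.02 at 4, 10 and 18 h and CANX by 0.06, 0.11 and 0.16, none called. At 18 h the 95% interval of CALR was -0.16 to 0.20 and that of CANX -0.0035 to 0.32, on the brightest probe set of each. A dimmer CALR probe set of the more specific type gave 0.40 at 10 h and 0.23 at 18 h (adjusted p = 0.438 and 0.662 over all probe sets). A dimmer CANX probe set gave 0.39 at 10 h and 0.34 at 18 h (adjusted p = 0.0528 and 0.0676), just over the threshold at 10 h. MANF and CRELD2, secreted proteins known as ER stress markers, were not called either. MANF came closest at 10 h, with 2072, 1865 and 2265 after enzastaurin and 1636, 1769 and 1718 in DMSO and a change of 0.27 ± 0.09 (adjusted p = 0.0873), and CRELD2 changed by 0.22, -0.02 and -0.03. With the disulfide isomerases, MANF and CRELD2 counted among the chaperone genes, 1, 6 and 6 of 16 were higher at 4, 10 and 18 h and none lower. Among all genes 0.558%, 3.77% and 8.10% were called higher.

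**Figure D3:**
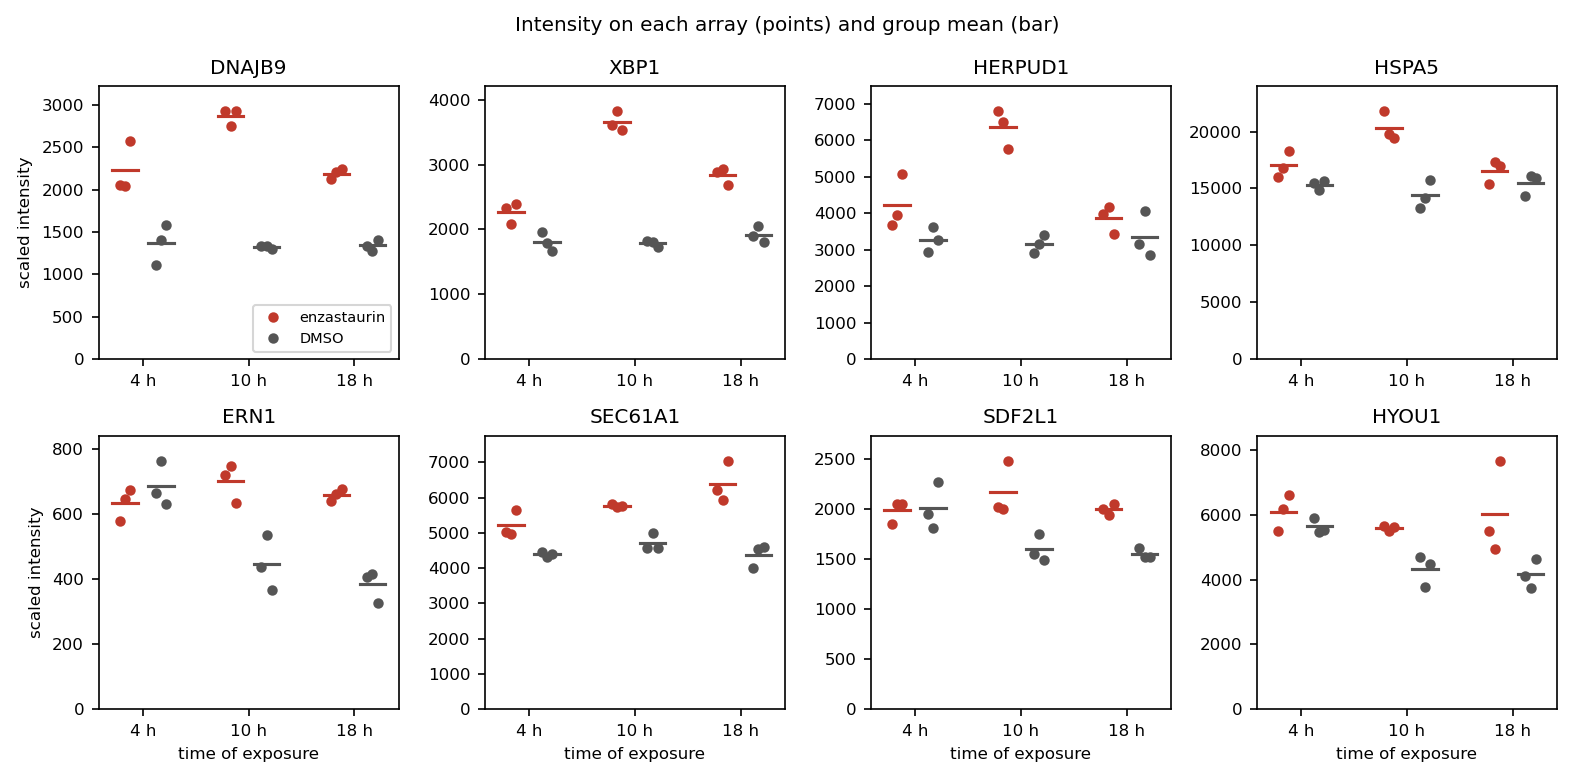
Intensity of each array (y axis, linear) for 8 genes at 4, 10 and 18 h, enzastaurin left of DMSO at each time; points are arrays and bars are means of 3. The points of DNAJB9 are apart at all 3 times, those of HERPUD1 and HSPA5 most clearly at 10 h, and in ERN1, HYOU1 and SDF2L1 the DMSO points at 10 h lie below those at 4 h.

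XBP1 encodes the transcription factor whose mRNA IRE1 splices. At 4 h it had 2327, 2082 and 2386 after enzastaurin, against 1961, 1796 and 1674 in DMSO. At 10 h the intensities were 3612, 3827 and 3536 after enzastaurin and 1819, 1800.3 and 1736 in DMSO, and at 18 h 2880.2, 2936 and 2692 after enzastaurin and 1898, 2050.2 and 1810.3 in DMSO. The groups never overlapped, and the enzastaurin arrays were highest at 10 h while the DMSO arrays kept between 1674 and 2050.2. The changes were 0.32 ± 0.07 at 4 h (adjusted p = 0.0249), 1.03 ± 0.07 at 10 h (adjusted p = 9.87e-09) and 0.56 ± 0.07 at 18 h (adjusted p = 1.51e-05). The 4 h call was lost without DMSO replicate 2 or 3 or enzastaurin replicate 1 or 3 (adjusted p up to 0.149). A second XBP1 probe set was below the level filter (mean intensity 65.7); averaging it in gave 0.12 at 4 h (adjusted p = 0.897), 0.69 at 10 h (adjusted p = 0.0625) and 0.61 at 18 h (adjusted p = 0.0656).

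ERN1 encodes IRE1 itself. At 10 h it had 719, 748 and 632 after enzastaurin and 437, 535 and 367 in DMSO, and at 18 h 639, 660.1 and 675 after enzastaurin and 407, 414 and 327 in DMSO. Neither time showed overlap, with changes of 0.64 ± 0.13 (adjusted p = 0.00352) and 0.76 ± 0.13 (adjusted p = 0.000323). At 4 h the arrays overlapped, 577, 647 and 674 after enzastaurin and 665, 763 and 631 in DMSO (change -0.11). The enzastaurin arrays thus stayed near one level through the 3 times and the DMSO arrays were lower at 10 and 18 h than at 4 h. Only the brightest ERN1 probe set shows this: the other 2, also above the level filter, gave 0.08 and -0.29 at 10 h and -0.05 and -0.18 at 18 h, none called. With all its probe sets averaged, ERN1 changed by 0.15 at 10 h (adjusted p = 0.629) and 0.18 at 18 h (adjusted p = 0.428).

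EIF2AK3, which encodes PERK, had 1260.1, 1043 and 1185 after enzastaurin at 18 h, against 840.5, 816 and 949 in DMSO. These groups were apart and the change was 0.41 ± 0.13 (adjusted p = 0.0311), lost without DMSO replicate 1 or 2 or enzastaurin replicate 1 or 3 (adjusted p up to 0.121). Averaging in a second EIF2AK3 probe set, which was below the level filter, gave 0.29 (adjusted p = 0.527). Its change at 10 h was of the same size, 0.41 ± 0.13, with 1720.2, 1629.6 and 1495 after enzastaurin and 1250.1, 1231 and 1156 in DMSO, and just missed the threshold (adjusted p = 0.0524). ATF6, the sensor that is itself a transcription factor precursor, had changes of 0.11, -0.08 and -0.18 at 4, 10 and 18 h, none called. A second ATF6 probe set of similar brightness gave 0.91 at 10 h (adjusted p = 0.0129 over all probe sets) and -0.16 and -0.22 at 4 and 18 h, so the probe sets of ATF6 disagree at 10 h. Of these 4 genes, the 3 sensors and XBP1, 1, 2 and 3 were higher at 4, 10 and 18 h, beside 0.558%, 3.77% and 8.10% of all genes. With the probe sets of a gene averaged, none of these calls was kept.

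HERPUD1, a membrane protein that assembles the degradation complex, was the only degradation factor called at a single time, at 10 h. That is 1 of 9 measured, beside 3.77% of all genes called higher at 10 h. HERPUD1 had 6799, 6480.4 and 5765 after enzastaurin, against 2900.3, 3147 and 3411 in DMSO. The level doubled without overlap, a change of 1.01 ± 0.13 (adjusted p = 2.1e-05), and the call held without any 1 array and under every alternative run, though with a dim second probe set averaged in the change was 0.62. At 4 h the groups were apart by a narrow margin, 3675, 3943 and 5068 after enzastaurin and 2934, 3610.1 and 3253 in DMSO, with a change of 0.36 ± 0.13 (adjusted p = 0.192). By 18 h they overlapped, 3971, 4176 and 3424 after enzastaurin and 3143, 4067 and 2863 in DMSO (change 0.21, adjusted p = 0.301).

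The other 8 measured degradation factors were not called at 4, 10 or 18 h or on average. EDEM1, EDEM2 and EDEM3, which trim mannose from misfolded glycoproteins, changed at 18 h by 0.19 ± 0.09, 0.35 ± 0.13 and 0.27 ± 0.13 (adjusted p = 0.19, 0.0817 and 0.18). EDEM2 had 689, 647 and 845 after enzastaurin and 632, 497 and 564 in DMSO at that time, apart by a narrow margin. SEL1L, the scaffold of the HRD1 ubiquitin ligase, changed by 0.14 at 10 h and 0.13 at 18 h. DERL1 and DERL2, derlins of the export channel, changed at 18 h by 0.16 and 0.03, and the lectin OS9 by 0.04. DERL3 was dim, between 35.1 and 355.7, and its 18 h interval of -0.60 to 1.06 leaves its change undetermined. A second DERL1 probe set gave 0.39 at 18 h (adjusted p = 0.0012 over all probe sets). At 18 h EDEM3, SEL1L and DERL1 were also apart, with the enzastaurin arrays above, while HERPUD1, EDEM1, DERL2, DERL3 and OS9 overlapped. Among all genes 15.4% had such arrays above at that time. All 9 measured degradation factors had a positive change at 18 h, with a median of 0.19, beside 50.2% of all genes. None passed the test there, beside 8.10% of all genes called higher, and 9 genes are too few to tell no calls from that share.

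SEC61A1 encodes the pore of the translocon, SEC61B its small beta subunit, SERP1 (RAMP4) a translocon-bound stress protein and WFS1 an ER membrane protein. SEC61A1 had 6202, 5920.3 and 7047 after enzastaurin at 18 h, against 4012, 4537 and 4587 in DMSO. At 10 h it had 5825, 5725 and 5762 after enzastaurin and 4556, 4986 and 4579.7 in DMSO, and at 4 h 5029, 4958 and 5652 after enzastaurin and 4464, 4319 and 4408 in DMSO. Its groups were apart at all 3 times, with changes of 0.24 ± 0.07 at 4 h (adjusted p = 0.108), 0.29 ± 0.07 at 10 h (adjusted p = 0.0136) and 0.54 ± 0.07 at 18 h (adjusted p = 1.84e-05). The 10 h call was lost without DMSO replicate 1 or 3 (adjusted p up to 0.0589), and the 18 h call held without any 1 array. A second SEC61A1 probe set gave -0.03 at 4 h, 0.39 at 10 h and 0.50 at 18 h (adjusted p = 0.967, 0.0658 and 0.00747 over all probe sets), of which only the last was called.

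SEC61B passed on the average of the 3 times only, by 0.25 ± 0.07 (adjusted p = 0.0121). At 4 h it had 11981, 12522 and 16054 after enzastaurin and 12368, 11342 and 12059.5 in DMSO. At 10 h it had 16289, 16129.6 and 17666 after enzastaurin and 14407, 12094 and 15899.8 in DMSO, and at 18 h 13663, 17944 and 13178 after enzastaurin and 12162, 12205 and 10846 in DMSO. The groups overlapped at 4 h and were apart at 10 and 18 h. SERP1 was not called on its brightest probe set (changes 0.15, 0.11 and 0.06), but 2 dimmer ones rose, by 0.38 and 0.36 at 10 h (adjusted p = 0.00196 and 0.00449 over all probe sets) and by 0.28 and 0.30 at 18 h (adjusted p = 0.0113 and 0.00902). WFS1 changed by 0.01, 0.17 and 0.10, none called.

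Whether the enzastaurin effect differed between times was tested as a difference of effects. The effect at 10 h exceeded that at 4 h for 2 of the 33 genes, XBP1 by 0.71 ± 0.10 (adjusted p = 0.00119) and ERN1 by 0.76 ± 0.19 (adjusted p = 0.0475), beside 0.808% of all genes with a larger and 0.598% with a smaller effect. For ERN1 this was lost without any 1 of the 12 arrays other than DMSO replicate 2 at 10 h (adjusted p up to 0.14). From 10 to 18 h the effect shrank for 2 of 33, HERPUD1 with a difference of -0.80 ± 0.18 (adjusted p = 0.0187) and XBP1 with one of -0.47 ± 0.10 (adjusted p = 0.0188), beside 0.905% of all genes with a smaller and 1.33% with a larger effect. Removing DMSO replicate 1 or enzastaurin replicate 1 at 10 h ended the HERPUD1 call, as did removing DMSO replicate 2 or enzastaurin replicate 3 at 18 h (adjusted p up to 0.056). The XBP1 call ended without DMSO replicate 3 or enzastaurin replicate 2 at 10 h or DMSO replicate 2 at 18 h (adjusted p up to 0.0592). HSPA5 had a difference of -0.40 ± 0.11 (adjusted p = 0.0615) and DNAJB9 one of -0.41 ± 0.14 (adjusted p = 0.173), neither called. Between 18 and 4 h only ERN1 of the 33 was called, with a difference of 0.88 ± 0.19 (adjusted p = 0.00516), beside 4.07% of all genes with a larger and 3.71% with a smaller effect. With array medians subtracted, or with each gene's probe sets averaged, 0 of the 33 differences were called between 10 and 4 h or between 18 and 10 h, and with probe sets averaged the ERN1 difference between 18 and 4 h was 0.36 (adjusted p = 0.292).

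**Figure D4:**
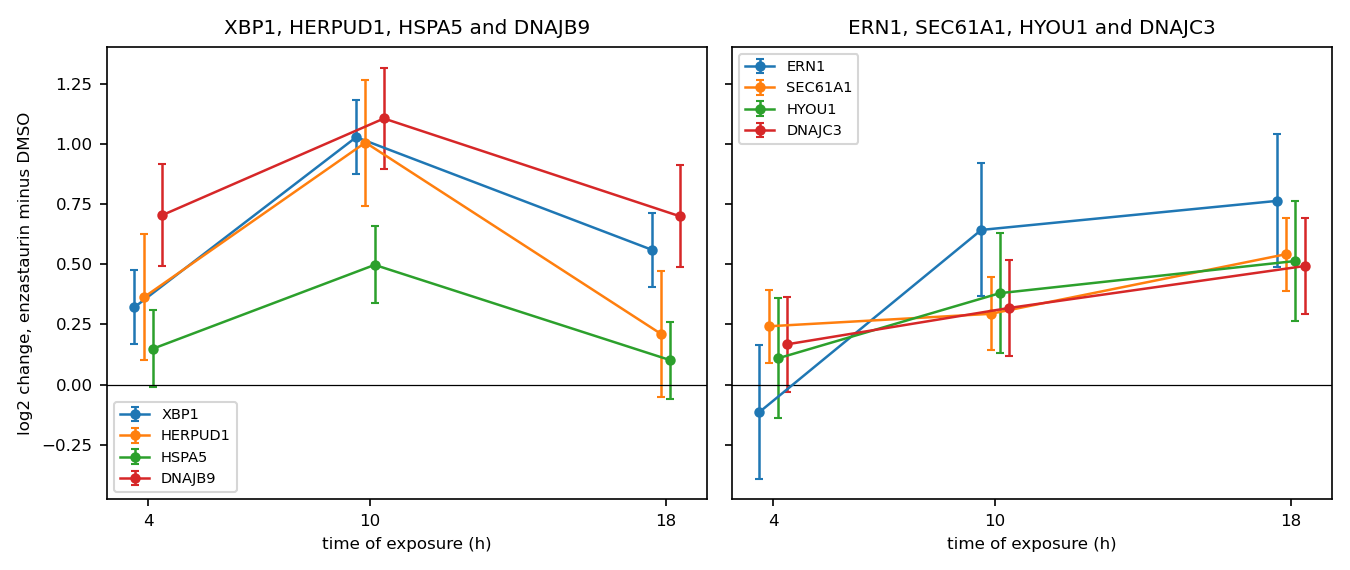
Log2 change (enzastaurin minus DMSO, y axis) with 95% intervals over time (x axis, hours); the left panel shows XBP1, HERPUD1, HSPA5 and DNAJB9 and the right panel ERN1, SEC61A1, HYOU1 and DNAJC3. The left genes have their highest values at 10 h and the right genes at 18 h, though the difference between 10 and 18 h was called only for XBP1 and HERPUD1.

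The highest change fell at 10 h for XBP1, HERPUD1, HSPA5 and DNAJB9, and at 18 h for ERN1, SEC61A1, HYOU1 and DNAJC3. For these last 4 genes the 18 h effect was not shown to exceed the 10 h effect, with differences of 0.12, 0.25, 0.13 and 0.17 (adjusted p from 0.269 to 0.855). The level of DNAJC3 itself was highest at 10 h, with means of 1660, 2277 and 1840 after enzastaurin at 4, 10 and 18 h and 1476, 1817 and 1303 in DMSO.

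The DMSO arrays moved over time as well, and these comparisons share their DMSO arrays with those above. From 4 to 10 h in DMSO, 2 of 33 genes were called higher and 4 lower, beside 11.5% and 6.61% of all genes. ERN1 fell by 0.62 ± 0.13 (adjusted p = 0.00285), HYOU1 fell by 0.39 ± 0.12 (adjusted p = 0.0272), SDF2L1 fell by 0.33 ± 0.09 (adjusted p = 0.019) and MANF fell by 0.32 ± 0.09 (adjusted p = 0.0234), while DNAJC3 rose by 0.30 ± 0.09 (adjusted p = 0.0341) and SEL1L by 0.24 ± 0.07 (adjusted p = 0.0223). Of the 6, only the ERN1 call held without any 1 array. HYOU1 was no longer called without replicate 2 at 10 h or replicate 1 or 3 at 4 h, SDF2L1 without replicate 1 or 3 at 10 h or replicate 3 at 4 h, and MANF without replicate 1 or 3 at 10 h or replicate 1 at 4 h. DNAJC3 was no longer called without replicate 1 or 3 at either time, and SEL1L without replicate 2 or 3 at either time (adjusted p up to 0.147 over these genes). With probe sets averaged the ERN1 change was -0.10 (adjusted p = 0.674), and with array medians subtracted HYOU1, SDF2L1 and MANF were not called. In ERN1, HYOU1 and SDF2L1 the gap at 10 h stands beside a lower DMSO level at that time. HYOU1 had means of 6104, 5598 and 6046 after enzastaurin at 4, 10 and 18 h, against 5645, 4315.5 and 4171 in DMSO. The enzastaurin arrays of SDF2L1 read 1849.5, 2053 and 2051 at 4 h, against 1952, 1807 and 2271 in DMSO at 4 h and 1548, 1752 and 1489.7 in DMSO at 10 h. XBP1, HERPUD1 and DNAJB9 did not show this, with DMSO changes of -0.02, -0.05 and -0.03 from 4 to 10 h.

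From 10 to 18 h in DMSO, 1 of 33 genes was called higher and 3 lower, beside 2.02% and 3.30% of all genes. DNAJC3 fell by 0.47 ± 0.09 (adjusted p = 0.00554), EIF2AK3 fell by 0.48 ± 0.13 (adjusted p = 0.0349) and ATF6 fell by 0.40 ± 0.11 (adjusted p = 0.0364), and WFS1 rose by 0.48 ± 0.14 (adjusted p = 0.0463). The DNAJC3 call held without any 1 array, but with probe sets averaged the change was -0.17 (adjusted p = 0.6); the WFS1 call was lost without each array in turn, the EIF2AK3 call without any array but replicate 3 at 18 h, and the ATF6 call without any but replicate 3 at 10 h (adjusted p up to 0.209, 0.11 and 0.15). The enzastaurin arrays of EIF2AK3 also read lower at 18 h (1260.1, 1043 and 1185) than at 10 h (1720.2, 1629.6 and 1495).

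Beyond the listed genes, 127 other genes of the pathway in 8 groups, also chosen with earlier results known, were counted, of which 117 were tested. At 4 h 4 were higher and 3 lower, at 10 h 16 and 1, and at 18 h 25 and 1. Among all genes 0.558%, 3.77% and 8.10% were higher at these times and 1.25%, 4.69% and 7.90% lower. The calls in these groups rest on the brightest probe set of each gene and were not repeated under other settings. Over all genes, subtracting array medians left 25 genes called lower at 4 h, against 155. The group of PERK branch targets held 5 of the 7 calls at 4 h: 4 of 13 were higher and 1 lower at 4 h, 8 higher at 10 h and 10 higher at 18 h, with median changes of 0.15, 0.73 and 0.69. Besides genes known to respond to ATF4, this group holds ATF4 itself, EIF2S1 and PPP1R15B. ATF4 was among the calls at 10 and 18 h and PPP1R15B among those at 18 h. SESN2, a stress-induced regulator of mTORC1, rose by 0.52 ± 0.11, 1.93 ± 0.11 and 1.18 ± 0.11 at 4, 10 and 18 h (adjusted p = 0.00986, 2.58e-10 and 9.59e-08). TRIB3, a pseudokinase, rose by 0.46 ± 0.09, 1.47 ± 0.09 and 1.74 ± 0.09 (adjusted p = 0.00735, 1.4e-09 and 3.36e-11). VEGFA, the angiogenic growth factor, rose by 0.47 ± 0.09, 1.26 ± 0.09 and 1.21 ± 0.09 (adjusted p = 0.00538, 9.3e-09 and 5.82e-09). ASNS, asparagine synthetase, rose by 1.02 ± 0.09 at 10 h and 1.33 ± 0.09 at 18 h (adjusted p = 2.9e-07 and 2.86e-09). The 1 PERK branch target called lower at 4 h was CEBPB, a transcription factor, named after its values were seen; its change was -0.35 ± 0.062 at 4 h (adjusted p = 0.00243), 0.36 ± 0.062 at 10 h (adjusted p = 0.000716) and 0.27 ± 0.062 at 18 h (adjusted p = 0.00391). ATF4 is known to be raised by other kinases than PERK as well.

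The remaining 7 groups, 104 genes tested, held 0, 8 and 15 genes called higher at 4, 10 and 18 h (0.00%, 7.69% and 14.4%, beside 0.558%, 3.77% and 8.10% of all genes) and 2, 1 and 1 called lower. None of these groups had over 3 genes called higher at 1 time, and 2 of 21 oxidoreductases and 2 of 20 degradation genes at 18 h are near the share of all genes. None of 21 further oxidoreductases and prolyl isomerases was called at 4 h, 1 was higher at 10 h and 2 at 18 h: the prolyl isomerase gene FKBP14 rose by 0.28 ± 0.08 at 10 h and 0.39 ± 0.08 at 18 h (adjusted p = 0.0378 and 0.00241), and the ER lumen protein gene ERP29 by 0.22 ± 0.07 at 18 h (adjusted p = 0.041). Among 8 exchange factors and other J proteins, FICD, the enzyme that AMPylates BiP, rose at 10 h by 0.54 ± 0.10 (adjusted p = 0.00152) and DNAJC1 fell by 0.30 ± 0.07 (adjusted p = 0.0103). At 18 h SEC63, a J protein of the translocon, rose by 0.34 ± 0.07 (adjusted p = 0.00282) and DNAJC16 by 0.39 ± 0.12 (adjusted p = 0.0237). N-glycosylation genes counted 0, 1 and 2 of 14 higher at 4, 10 and 18 h, RPN1 of the oligosaccharyltransferase rising by 0.27 ± 0.06 at 18 h (adjusted p = 0.00474). Its partner subunit RPN2 rose by 0.32 ± 0.10 at 18 h (adjusted p = 0.0275), and the ER lectin gene MLEC by 0.39 ± 0.10 at 10 h (adjusted p = 0.0216). Further translocon and signal peptidase genes counted 0, 2 and 3 of 14, with SSR3 of the translocon-associated complex up by 0.37 ± 0.07 at 18 h (adjusted p = 0.000934). The signal recognition particle receptor genes SRPRB and SRPRA rose at 18 h by 0.30 ± 0.06 and 0.35 ± 0.10 (adjusted p = 0.00187 and 0.0191).

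The 20 further degradation genes tested gave 1 call at 4 h, the ubiquitin ligase MARCHF6, which fell by 0.30 ± 0.07 (adjusted p = 0.0206), none at 10 h and 2 higher at 18 h, AUP1 (0.20 ± 0.07, adjusted p = 0.0462) and UBE2G2 (0.30 ± 0.10, adjusted p = 0.0387). Genes of the COPII coat and its cargo receptors counted 0, 2 and 3 of 16 higher, with the cargo adaptor SEC24D up by 0.64 ± 0.18 at 10 h (adjusted p = 0.0351). At 18 h the cargo receptor gene LMAN1 rose by 0.27 ± 0.07, the coat gene SEC13 by 0.24 ± 0.07 and the scaffold gene SEC16A by 0.30 ± 0.09 (adjusted p = 0.00827, 0.0205 and 0.0229). In the group of partners and relatives of the sensors, CREB3L2, an ATF6-like transcription factor, rose by 0.39 ± 0.07 at 10 h (adjusted p = 0.000538) and 0.20 ± 0.07 at 18 h (adjusted p = 0.0433). MBTPS1, the protease that makes the first cut in ATF6, fell by 0.59 ± 0.14 at 18 h (adjusted p = 0.00552), and NFYB, a subunit of the factor that binds CCAAT, fell by 0.43 ± 0.11 at 4 h (adjusted p = 0.0457).

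**Figure D5:**
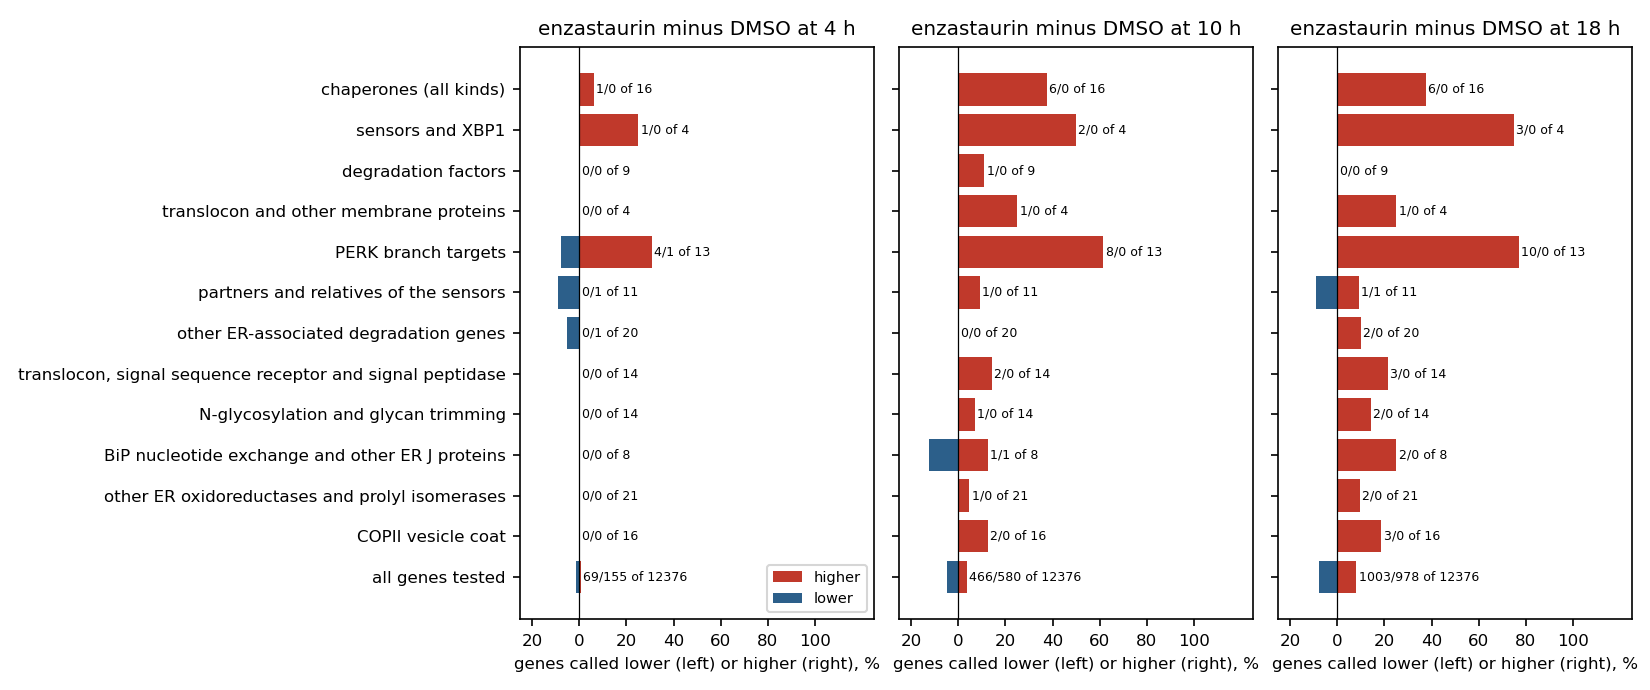
Percent of tested genes called higher (right) and lower (left) after enzastaurin in each gene group at 4, 10 and 18 h, with the counts printed beside the bars and all genes tested for comparison. Among the listed roles the sensors with XBP1 and the chaperones (counted with the disulfide isomerases, MANF and CRELD2) have the highest shares at 10 and 18 h. The sensors with XBP1 are only 4 genes, and with probe sets averaged none of their calls was kept. The group of PERK branch targets, which includes ATF4 itself, has 8 and 10 of 13 called higher.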

How the data were processed

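Total RNA was hybridized to Affymetrix HG-U133 Plus 2.0 arrays, 18 in all, 3 in each of 6 groups. The authors deposited 1 intensity on a linear scale per probe set (54613) and array, from GCOS 1.2 per the submitters' processing notes; further upstream steps are not given in the sources used here. The platform annotation gave 41091 probe sets 1 gene symbol, 1801 several and 11721 none. Each of 19775 genes was represented by its brightest probe set with 1 symbol, and 12376 genes at or above the median level of all probe sets were tested. Values were taken as log2(intensity + 16) and fitted with limma 3.58.1 in R 4.3.3 (lmFit, eBayes with trend, 1 mean per group over 18 arrays); 9 comparisons were made, each adjusted by Benjamini-Hochberg over all genes. Intensities of different probe sets were compared only to choose the brightest one, to apply the level filter and to call a probe set bright or dim. Arrays with the same replicate number in enzastaurin and DMSO did not deviate together (correlations -0.08 to 0.05), so no block was used. The code was tested on simulated data. Named genes were all members of the list, and in each further group up to 4 called genes with the smallest adjusted p. The members, the gene groups and the tests were chosen with earlier results of these data known. Promoters were searched for exact motif matches on both strands. The results of the listed genes and the counts over all genes were repeated under other settings, but not the calls in the further groups. Repeats used other offsets (1 and 64) and other level filters (none, or the brightest 25% of probe sets). They also used other scalings (quantile normalization, or each array's median subtracted) and other summaries of a gene (the mean of its probe sets, or every probe set tested). Other fits were no trend, only the groups compared, a replicate block, and each array left out.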

Additional observations from a re-analysis of the deposited data

Results flagged for a closer look

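In the main fit the enzastaurin effect differed between times for 3 genes by a test of the difference itself. With array medians subtracted, or with each gene's probe sets averaged, no listed gene was called for 10 minus 4 h or 18 minus 10 h. The ERN1 difference between 18 and 4 h was lost with probe sets averaged. Its difference between 10 and 4 h was lost without any 1 of 11 of the 12 arrays. XBP1 had an effect 0.71 ± 0.10 larger at 10 than at 4 h (0.7067 on the log2 scale, limma adjusted p = 0.00119), and its effect at 18 h was lower than at 10 h (-0.4679, adjusted p = 0.0188). The enzastaurin arrays were above the DMSO arrays in 3 of 3 at each time. HERPUD1 had a smaller effect at 18 than at 10 h (-0.7955, adjusted p = 0.0187). ERN1 had a larger effect at 10 than at 4 h (0.7564, adjusted p = 0.0475) and at 18 than at 4 h (0.8771, adjusted p = 0.00516), with DMSO arrays that were lower at 10 h than at 4 h and 2 other probe sets that do not show the effect. The DMSO change is part of this difference of effects by its definition. On the brightest ERN1 probe set the DMSO means were 687 at 4 h and 446 at 10 h, and the enzastaurin means 633 and 700. The cause of the lower DMSO level was not tested.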

How the results depend on the processing

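No call among the listed genes changed direction under any alternative or without any array. Over the 22 enzastaurin calls at 4, 10 and 18 h and 11 alternatives, 213 of 242 repeats kept the call and 29 lost it; for the 10 DMSO calls over time 87 of 110 kept it and 23 lost it. With array medians subtracted the listed genes called were 1 at 4 h, 6 at 10 h, 0 for each of the differences 10 minus 4 h and 18 minus 10 h, and 3 for DMSO at 10 minus 4 h; with the mean over probe sets of a gene they were 1, 6, 0, 0 and, for DMSO at 18 minus 10 h, 0. Without the trend the counts were 1 at 4 h, 1 for each of those differences and 1 for DMSO at 18 minus 10 h. Testing only the groups compared gave 1 at 4 h and 1 for the difference 10 minus 4 h, no level filter gave 1 for that difference and 1 for DMSO at 18 minus 10 h, every probe set tested gave 1 for that difference, and quantile normalization gave 2 for the difference 18 minus 4 h. Leaving out 1 array gave 1 to 2 calls at 4 h, 6 to 10 at 10 h, 8 to 11 at 18 h, 14 to 17 on average, 1 to 2 for 10 minus 4 h, 0 to 3 for 18 minus 10 h (0 without the second DMSO array at 18 h), 1 to 3 for 18 minus 4 h, 2 to 5 for DMSO at 10 minus 4 h and 1 to 3 for DMSO at 18 minus 10 h. With the replicate number as a block the counts were 2, 11 and 11 at the 3 times and 16 on average, and the pairing changed no other count by over 1.5 times.

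Subtracting array medians also shifts all genes, by 0.12 at 4 h, 0.12 for DMSO at 10 minus 4 h and -0.10 for DMSO at 18 minus 10 h, and by -0.11 for the differences from 4 h. Over all genes it gave 79, 443 and 1187 calls at 4, 10 and 18 h, against 224, 1046 and 1981, and 26, 65 and 546 for the 3 differences, against 174, 276 and 963. The share of calls that were higher became 68.4% at 4 h, against 30.8%, and 64.9% on average, against 49.0%; for the differences 10 minus 4 h and 18 minus 4 h it became 30.8% and 26.2%, against 57.5% and 52.3%; for DMSO at 10 minus 4 h and 18 minus 10 h (437 calls, against 658) it became 85.9% and 14.2%, against 63.5% and 38.0%. The mean over probe sets gave 127 and 630 calls at 4 and 10 h, 68, 130 and 543 for the differences, and 1319 and 345 for DMSO over time. Other all-gene counts that moved by over 1.5 times were 139 at 4 h with only the groups compared, 114 and 90 for 10 minus 4 h with no level filter and no trend, and 3419 for DMSO at 10 minus 4 h (2243 otherwise) with every probe set tested. Dim probe sets limit DERL3, and 3 arrays a group limit all small changes. The cause of the differences between settings was not tested.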
